A study of Homo sapiens with 12 samples.

Results

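The transcripts described here encode 8 histone H3 lysine enzymes: the H3K4 methyltransferases KMT2A, KMT2B, KMT2C, KMT2D, SETD1A and SETD1B, and the H3K27 demethylases KDM6A and KDM6B. They were chosen by name from the 56632 genes of the series, as enzymes for some of which the study tested binding of the mRNA by CBFB, beside close relatives. The study asked how loss of CBFB changes the position of mRNAs along a ribosome gradient. The cells were MCF10A, a line of human breast epithelium that does not form tumours, at a passage under 20, either wild type (WT) or with CBFB knocked out by CRISPR (CBFB_KO). By the study's methods such knockouts were grown from single-cell colonies, so a difference between the genotypes is also one between a clone and its parent line. CBFB is the non-DNA-binding partner of the RUNX transcription factors. All cells grew with horse serum, insulin, EGF, hydrocortisone and cholera toxin, and all were given cycloheximide, which holds ribosomes on mRNA, before lysis. RNA from a sucrose gradient was sequenced in 3 fractions, free of ribosomes (free), with single ribosomes (mono) and with several, pooled (poly), which makes 12 libraries, 2 for each of 6 conditions. Nothing in the labels says that the replicates were separate cultures, so p-values measure only the spread between these libraries, which may be technical.

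KMT2 and SETD1 enzymes are the catalytic subunits of the COMPASS family of complexes, which share a core of WDR5, RBBP5, ASH2L and DPY30. SETD1A and SETD1B are general promoter methyltransferases, KMT2A and KMT2B act with menin at selected promoters, and KMT2C and KMT2D place monomethyl marks at enhancers. KDM6A, which is also a subunit of the KMT2C and KMT2D complexes, and KDM6B remove methyl groups that the Polycomb repressive complex PRC2 adds to H3K27. The number of ribosomes on an mRNA sets how deep it sediments, so an mRNA without ribosomes is recovered in the free fraction and one with many in the poly fraction.

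All 8 mRNAs are long. By the longest coding transcript of each gene in GENCODE release 29, KMT2D has 19419 bases, KMT2C 16862, KMT2A 16628, KMT2B 8469, SETD1B 8185, KDM6B 6713, SETD1A 6451 and KDM6A 5789. The median of the 13091 tested genes with such a transcript is 3248 bases. Even KDM6A, the shortest, is longer than 81.7% of these genes, and the 3 longest exceed 99.7% or more. The genes lie on chromosomes 12 (KMT2D and SETD1B), 7 (KMT2C), 11 (KMT2A), 19 (KMT2B), 17 (KDM6B), 16 (SETD1A) and X (KDM6A). Part of KMT2C has near-identical copies elsewhere in the genome, so its counts are less certain than those of the others.

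Runs of C are shown because the study examined poly-C tracts as sites of hnRNPK, an RNA-binding protein that it placed with CBFB on mRNA. The sense strand of each transcript was searched for CCCCC, with each unbroken run of 5 or more C counted 1 time, and 84.4% of the tested coding genes hold at least 1 such run. The 8 enzymes fall into separate sets. KDM6B has 7.75 runs per 1000 bases, SETD1B 6.6, SETD1A 6.05, KMT2B 6.02 and KMT2D 4.79, each above 97.4% or more of the tested coding genes. KMT2A has 1.14, KMT2C 0.652 and KDM6A 0.518, near the median of 0.841. The G+C content splits them in the same way, from 59.1% to 63.5% in the former 5 and from 43.4% to 46.9% in the latter 3. The longest run of 3 transcripts that differ in density is printed below 5′ to 3′ in a window of 30 bases, with the run in capitals. The windows lie in exon 11 of KDM6B (coding sequence, chr17:7847808-7847837, + strand), exon 10 of KMT2D (coding sequence, chr12:49051731-49051760, - strand) and exon 1 of KDM6A (5′ UTR, chrX:44873284-44873313, + strand), in GRCh38 coordinates of GENCODE release 29.
KDM6B: ggactgagggaCCCCCCCgccctgccccac
KMT2D: atcacctatgtCCCCCCCacctgaggtatc
KDM6A: cgcctgtggctgCCCCCtgcccaaccccgc
A run is a description of the sequence and no evidence of a bound protein.

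**Figure D1:**
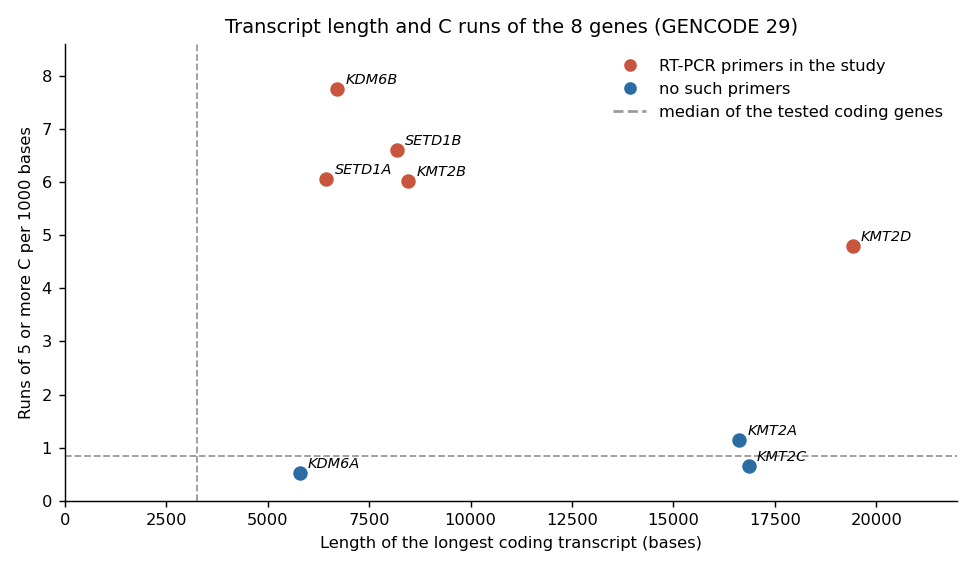
Length of the longest coding transcript (x axis, bases) against the number of runs of 5 or more C per 1000 bases (y axis) for the 8 genes. Red points are the 5 genes for which the study listed RT-PCR primers, blue points the 3 others, and dashed lines the medians of the tested coding genes (3248 bases and 0.841 runs per 1000 bases). The red points lie between 4.79 and 7.75 runs, the blue points between 0.518 and 1.14.

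The study listed RT-PCR primers for 5 of the 8 mRNAs, and these are the 5 with dense C runs. The primers are printed 5′ to 3′, forward and then reverse, because they mark the stretch of each mRNA that the study itself assayed.
KMT2B forward: ctcctcgcctagcagatgtg
KMT2B reverse: catccgttctgtgccttcct
KMT2D forward: tgagctgctcaagggtgaag
KMT2D reverse: cggggccctccagtttaatt
SETD1A forward: cccatcttcctttggccagt
SETD1A reverse: gacgtgtagggggttccttg
SETD1B forward: ctggttggagacagaacccc
SETD1B reverse: gatctccatgtcctcgcctg
KDM6B forward: ctcaaatccttggcctccgt
KDM6B reverse: tccagtcccccgataacagt
All 5 products lie in coding sequence. In GRCh38 they span chr19:35719835-35719914 (KMT2B, exon 3, 80 bases), chr12:49044478-49044763 on the - strand (KMT2D, exons 19 to 20, 65 bases of mRNA), chr16:30964222-30964278 (SETD1A, exon 6, 57 bases), chr12:121810794-121814138 (SETD1B, exons 6 to 7, 75 bases of mRNA) and chr17:7848698-7848754 (KDM6B, exon 11, 57 bases). The KMT2B product occurs in 1 of the 4 transcripts of that gene found in the annotation, the KMT2D product in 1 of 7, SETD1A in 1 of 2, SETD1B in 2 of 2 and KDM6B in 2 of 6.

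The libraries held between 41050325 and 63886726 expected counts. Counts of mitochondrially encoded RNA made up 71.56% and 87.22% of the CBFB_KO free libraries and between 1.26% and 20.81% of the other 10, so that counts outside them were 13568143 and 5247878 in CBFB_KO free and 43279862 or more elsewhere. Both CBFB_KO free libraries therefore stand apart, and their part in the results below was not tested beyond the refits named there. The CBFB_KO poly libraries were close to each other (mean chi-square of 2.26 per gene, against 128 to 957 for the other pairs), above the 1 that sampling noise gives, and were kept as 2 libraries. Whether they are separate samples is not known. The p-values that use them depend on that choice, and fewer genes passed in poly to free when they were counted as 1 sample. CBFB mRNA was still counted in CBFB_KO, at 11.3 and 14.1 CPM in free, 4.79 and 3.89 in mono and 3.59 and 4.01 in poly, against 5.37 and 12.6, 8.03 and 6.2, and 5.72 and 6.84 in WT. A knockout by CRISPR need not lower the mRNA, so these counts do not check the labels. The lowest of the 9 mammary epithelial markers, KRT14 and TP63, were at an FPKM of 0.24 or more in every library. PTPRC, COL1A2 and PGR, markers of leukocytes, fibroblasts and luminal hormone response, were listed at 0 in all 12. By contrast COL1A1, also of fibroblasts, ran from 0.04 to 2.24 FPKM. ESR1, also of luminal hormone response, ran from 0.04 to 0.79, so neither was at 0 in any library. Of the 8 markers of other cell types 7 were matched, and they summed to between 0.14 and 2.56 FPKM per library, against 284 to 5140 for the epithelial markers.

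In WT cells the 8 mRNAs differed in level. On the FPKM scale, which divides by gene length, the poly fraction held KMT2B at 17.0 ± 0.891 (mean ± SD, n = 2 here and below), SETD1A at 6.74 ± 1.07, KDM6B at 5.04 ± 0.297, KMT2D at 4.62 ± 2.79, SETD1B at 2.46 ± 0.127, KDM6A at 1.51 ± 0.926, KMT2A at 0.43 ± 0.184 and KMT2C at 0.3 ± 0.212. KDM6B and KMT2D overlapped in this order, as did KMT2A and KMT2C, and the other neighbours did not. In the WT free fraction KMT2B led at 7.96 ± 4.91 FPKM, KMT2C was lowest at 0.11 ± 0.0566, and the 6 between them, from 0.495 to 1.51, each overlapped with the next. In the WT mono fraction KMT2B (8.27 ± 0.488) and KDM6B (6.41 ± 0.863) were highest and KMT2C was listed at 0 in both libraries. FPKM of these genes carries a further error, because RSEM's gene length is weighted by isoform and differed between libraries. It ran from 479 to 16862 bases for KMT2C, from 1908 to 19419 for KMT2D and from 1481 to 5105 for KMT2B, but stayed at 8193 to 8195 for SETD1B. Changes of 1 gene between libraries are therefore given below as CPM, expected counts divided by the library total and a TMM factor, which uses no length.

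In WT 3 of the 8 mRNAs passed the test as higher in poly than in free, against 14.0% of the 16275 genes tested that were higher in poly and 7.99% that were lower. SETD1A had 3.23 and 7.87 CPM in the WT free and 30.8 and 22.1 in the WT poly libraries (log2 ratio 2.25 ± 0.502, SE, Benjamini-Hochberg adjusted p = 0.0105 in edgeR). KMT2B had 7.78 and 11.8 in free and 30.9 and 26.3 in poly (log2 ratio 1.55 ± 0.367, adjusted p = 0.0136). KMT2D had 6.22 and 3.72 in free and 10.2 and 16.3 in poly (log2 ratio 1.41 ± 0.442, adjusted p = 0.0414). For these 3 both WT poly libraries lay above both WT free libraries. The same held for KDM6B, with 20.7 and 12.5 CPM in WT poly against 2.94 and 8.45 in WT free. The share of all genes for which this held is not given here. KDM6B, at a log2 ratio of 1.54 ± 0.555, did not pass (adjusted p = 0.0674), nor did KMT2C (1.17), KDM6A (0.43), SETD1B (0.19) and KMT2A (-0.69). With WT replicate 1 left out the log2 ratios were 2.15 for KMT2D, 1.51 for SETD1A and 1.18 for KMT2B, and these calls were lost. The call of KMT2D was lost on leaving out any 1 replicate number of either genotype. KDM6B was at 2.88 without WT replicate 2. In each of these refits a smaller share of all genes was called higher too. With a length offset, which removes the smooth trend of counts on gene length in each library, KMT2D moved to a log2 ratio of -0.10 and KMT2B alone was still higher, beside 11.0% of all genes, while KMT2A was lower at -2.19.

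In CBFB_KO the ratio of poly to free fell for 7 of the 8 mRNAs, against 14.3% of the 16275 genes tested that fell and 4.1% that rose. The median change of the 8 was -4.74 on the log2 scale, a 26.8-fold drop, beside a median of -0.1 over all genes tested. The 7 included every methyltransferase and the demethylase KDM6B. KDM6A alone among the 8 did not pass. The difference lay in the free fraction, where all 8 were higher in both CBFB_KO libraries than in either WT library, as were 37.4% of all genes tested, whereas in the mono and poly fractions 0 of the 8 passed the test.

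**Figure D2:**
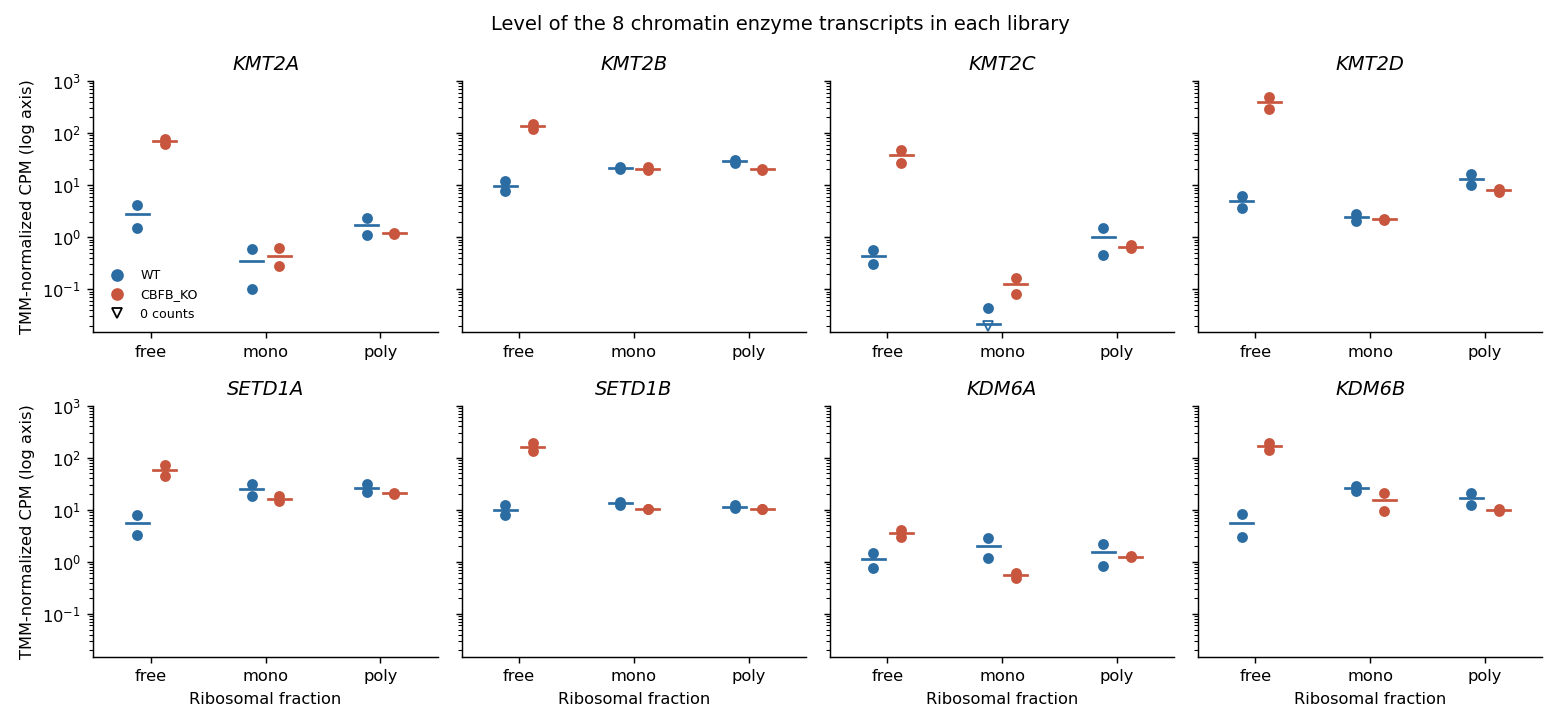
TMM-normalized CPM (y axis, log scale) of the 8 mRNAs in the free, mono and poly fractions (x axis). Points are single libraries of WT (blue) and CBFB_KO (red), short lines their mean, and an open triangle a library with 0 counts, drawn at the lower edge. In the free fraction both CBFB_KO points lie above both WT points in each panel, by the least for KDM6A, while in the poly fraction the genotypes lie close together.

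Both enhancer methyltransferases fell. KMT2D had 6.22 and 3.72 CPM in the WT free libraries and 286.0 and 492.0 in CBFB_KO free, from 436 and 289 against 6744 and 4868 expected counts. In poly it had 10.2 and 16.3 CPM in WT and 8.54 and 7.48 in CBFB_KO. The genotypes thus stood far apart in free and near each other in poly. The poly to free ratio of KMT2D changed by -7.02 ± 0.675 on the log2 scale (129-fold, 95% interval -8.50 to -5.54, edgeR adjusted p = 0.00036). KMT2C rose from 0.3 and 0.579 CPM in WT free, which is 21 and 45 counts, to 27.1 and 47.9, or 637 and 474 counts. Its poly values were 0.46 and 1.53 CPM in WT and 0.609 and 0.708 in CBFB_KO, where the CBFB_KO libraries lay between the WT ones. The ratio changed by -7.00 ± 0.987 (95% interval -9.16 to -4.83, edgeR adjusted p = 0.00112).

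Both menin-associated enzymes fell. KMT2A, known from its translocations in leukaemia, had 4.08 and 1.5 CPM in WT free and 62.0 and 77.5 in CBFB_KO free. In poly it had 1.09 and 2.38 in WT and 1.22 and 1.17 in CBFB_KO, again with the CBFB_KO libraries between those of WT. The change of the ratio was -5.18 ± 1.01 (36.3-fold, 95% interval -7.39 to -2.97, edgeR adjusted p = 0.00607). KMT2B had 7.78 and 11.8 CPM in WT free, 150.0 and 121.0 in CBFB_KO free, 30.9 and 26.3 in WT poly and 20.5 and 19.6 in CBFB_KO poly. Both genotypes were separate in both fractions, in opposite directions, though only the difference in free passed the test. Both CBFB_KO poly libraries also lay below both of WT for KMT2D, SETD1A, SETD1B and KDM6B. The share of all genes with such a gap in poly is not given here. The change of the KMT2B ratio was -4.30 ± 0.529 (19.7-fold, 95% interval -5.46 to -3.14, edgeR adjusted p = 0.00059).

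Both general promoter methyltransferases fell. SETD1B had 7.82 and 12.4 CPM in WT free and 136.0 and 191.0 in CBFB_KO free, while the poly libraries held 12.5 and 10.6 in WT and 10.5 and 10.4 in CBFB_KO. The levels in poly were thus nearly equal. Its ratio changed by -4.16 ± 0.545 (17.9-fold, 95% interval -5.36 to -2.97, edgeR adjusted p = 0.000773). SETD1A had 3.23 and 7.87 CPM in WT free and 72.4 and 45.4 in CBFB_KO free, with 30.8 and 22.1 in WT poly and 20.4 and 21.2 in CBFB_KO poly. Its ratio changed by -3.75 ± 0.701 (13.5-fold, 95% interval -5.29 to -2.22, edgeR adjusted p = 0.00499). The intervals of SETD1A, SETD1B and KMT2B overlap almost wholly, so these 3 cannot be put in order, and those of KMT2A and KDM6B also include the estimates of KMT2C and KMT2D.

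Of the H3K27 demethylases KDM6B passed the test and KDM6A did not. KDM6B, which is induced by inflammatory and developmental signals, had 2.94 and 8.45 CPM in WT free and 141.0 and 190.0 in CBFB_KO free. Its poly level was 20.7 and 12.5 in WT and 10.2 and 9.53 in CBFB_KO, with both CBFB_KO libraries below both of WT. The ratio changed by -5.61 ± 0.82 (48.8-fold, 95% interval -7.41 to -3.81, edgeR adjusted p = 0.00136). KDM6A, an X-linked gene, had 1.51 and 0.772 CPM in WT free and 3.02 and 4.15 in CBFB_KO free. These values rest on few counts, 106 and 60 in WT and 71 and 41 in CBFB_KO, so that the raw counts went down while the scaled values went up. In poly KDM6A had 0.843 and 2.24 CPM in WT and 1.27 and 1.22 in CBFB_KO. Its ratio changed by -1.95 ± 0.936, which did not pass (95% interval -4.00 to 0.10, edgeR adjusted p = 0.148). The interval includes both no change and a fall like that of SETD1A. The difference between KDM6A and the other 7 was not tested.

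A poly to free CPM ratio was also formed from libraries of 1 genotype with the same replicate number, called a gradient here. The labels do not say that such libraries came from 1 gradient. Across genes, which are not independent, the deviations of free and poly were nearly uncorrelated (r = 0.048 in WT and 0.017 in CBFB_KO). For free and mono r was -0.041 in WT and 0.12 in CBFB_KO, and for mono and poly 0.224 and 0.002. The 2 CBFB_KO ratios lay below both WT ratios for all 8 mRNAs, which also held for 36.5% of the 12451 genes with a ratio in every gradient. For KMT2D the ratios were 1.64 and 4.38 in WT and 0.0298 and 0.0152 in CBFB_KO. For KDM6B they were 7.04 and 1.48 in WT and 0.0722 and 0.0501 in CBFB_KO. For KDM6A they were 0.557 and 2.9 against 0.421 and 0.293, a gap between the genotypes smaller than that between the WT gradients. For KMT2A they were 0.267 and 1.58 against 0.0196 and 0.0151.

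Within the free fraction the enzymes were higher in CBFB_KO for 7 of 8, beside 24.2% of all genes tested that were higher and 18.1% that were lower. The log2 changes were 6.40 ± 0.79 for KMT2C, 6.29 ± 0.544 for KMT2D, 4.86 ± 0.637 for KDM6B, 4.64 ± 0.775 for KMT2A, 4.02 ± 0.418 for SETD1B, 3.79 ± 0.401 for KMT2B and 3.41 ± 0.527 for SETD1A, each at an edgeR adjusted p of 0.00138 or less. KDM6A, at 1.64 ± 0.676, had an adjusted p of 0.0691 in edgeR and of 0.0458 in DESeq2, and passed in edgeR at 2.20 without WT replicate 1. These values are shares of a library: a rise of an mRNA in the free fraction and a loss of other RNA from it cannot be told apart. Scaling by library size alone, which leaves the mitochondrial RNA in the total, shifted the median of all genes from 0.04 to -1.57 in this comparison. Under it 7 of the 8 enzymes were still higher, from 1.80 (SETD1A) to 4.56 (KMT2C), against 7.87% of all genes, and KDM6A was at -0.09. A fit of the free libraries alone called 12.7% of 14350 genes higher and 0.676% lower.

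**Figure D3:**
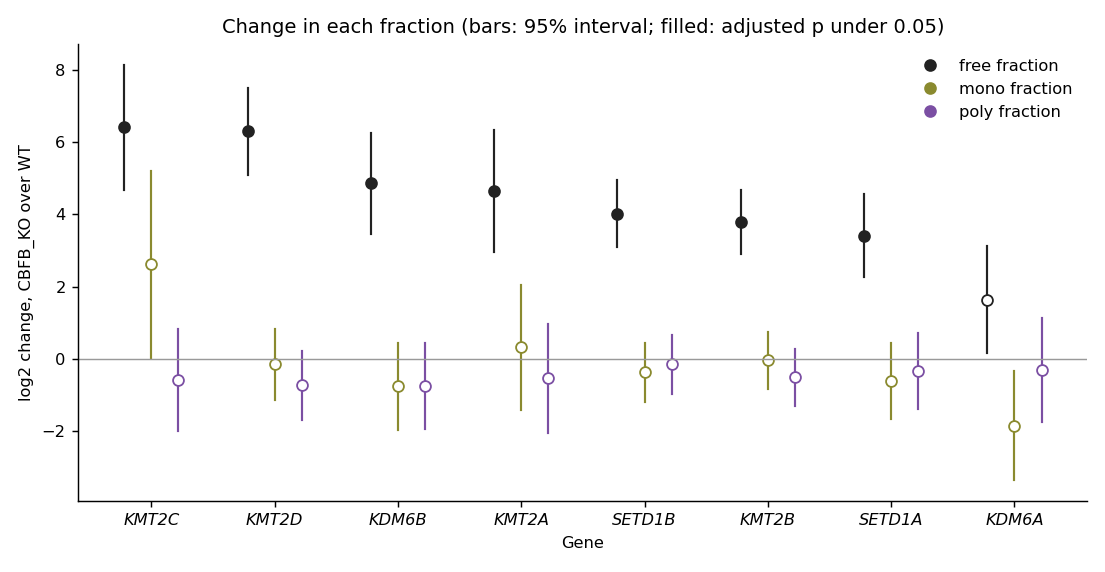
log2 change of CBFB_KO over WT (y axis) for each of the 8 genes (x axis) in the free (black), mono (olive) and poly (purple) fractions. Points are edgeR estimates, bars their 95% interval, and filled points have an adjusted p under 0.05. The free changes run from 1.64 (KDM6A) to 6.40 (KMT2C), whereas the poly changes lie between -0.75 and -0.14.

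In the mono fraction 0 of the 8 enzymes passed the test in edgeR and 2 had an unadjusted p under 0.05, beside 0.117% of genes lower and 0.0307% higher over all genes tested. The 2 were KDM6A, with 1.17 and 2.84 CPM in WT and 0.613 and 0.496 in CBFB_KO (log2 change -1.84 ± 0.687, adjusted p = 0.899), and KMT2C. KMT2C in mono was near the limit of detection, with 0 and 2 counts in WT and 9 and 3 in CBFB_KO. The ratio of these summed counts was 6.97, with an exact 95% interval of 1.55 to 64.1 for counting error only. KMT2A had 0.103 and 0.603 CPM in WT mono and 0.279 and 0.607 in CBFB_KO mono, below its free and poly levels in either genotype. SETD1A, SETD1B, KMT2B and KDM6B were between 9.57 and 31.6 CPM in every mono library.

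In the poly fraction 0 of the 8 passed and 0 had an unadjusted p under 0.05 in edgeR, and DESeq2 also called 0, beside 0.166% of all genes lower and 0.0246% higher. All 8 estimates were below 0, from -0.14 (SETD1B) to -0.75 (KDM6B), with a median of -0.53 beside -0.03 over all genes tested. The 95% interval of KMT2D, at a log2 change of -0.72, ran from -1.68 to 0.23, and that of SETD1B from -0.96 to 0.67, so that changes of up to about that size in either direction were not detectable with these libraries. KMT2A, KMT2C and KDM6A turned above 0 when WT replicate 2 was left out.

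The poly to mono ratio, which sets mRNAs with many ribosomes against those with 1, changed for 0 of the 8 in edgeR and in DESeq2, as for 0.0% of all genes tested in either direction, among which 164 had an unadjusted p under 0.05. The estimates were -0.57 ± 0.621 for KMT2D, -0.48 ± 0.508 for KMT2B, -0.87 for KMT2A (95% interval -3.16 to 1.42), 0.01 ± 0.771 for KDM6B, 0.23 ± 0.525 for SETD1B, 0.27 ± 0.678 for SETD1A and 1.54 ± 0.939 for KDM6A. KMT2C, at -3.21 ± 1.34, had an unadjusted p of 0.0354 in edgeR and rests on the mono counts given above. For SETD1B the 95% interval of -0.92 to 1.38 leaves out a change of the size seen in its poly to free ratio.

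Length moved with the poly to free change over the whole table. Of the genes with a mean RSEM length under 1000 bases 2.8% fell, with a median log2 change of 1.30. The share was 7.37% from 1000 to 2000 bases, 14.6% from 2000 to 3000, 26.0% from 3000 to 4000, 38.2% from 4000 to 6000 and 50.6% above 6000, where the median was -3.17. KMT2D, SETD1A and SETD1B lie in the longest class and KMT2A, KMT2C and KDM6B in the one before it, whose median was -2.35. SETD1A and SETD1B were within 1 of the median of their class on the log2 scale. KMT2C, KMT2D and KDM6B were more than 3 below theirs. KMT2B and KDM6A, with mean RSEM lengths of 2819 and 2753 bases, share the class of 2000 to 3000 bases, with a median of -0.47, and there KMT2B was at -4.30 and KDM6A at -1.95. By the longest coding transcript the classes differed. KMT2B and SETD1B then lie from 8000 to 12000 bases, where 39.0% fell (median -2.53). KDM6A lies from 4000 to 6000 (25.9%, median -1.45), and SETD1A and KDM6B from 6000 to 8000 (34.4%, median -2.15). KMT2A, KMT2C and KMT2D lie at 12000 or more (38.2%, median -2.4).

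**Figure D4:**
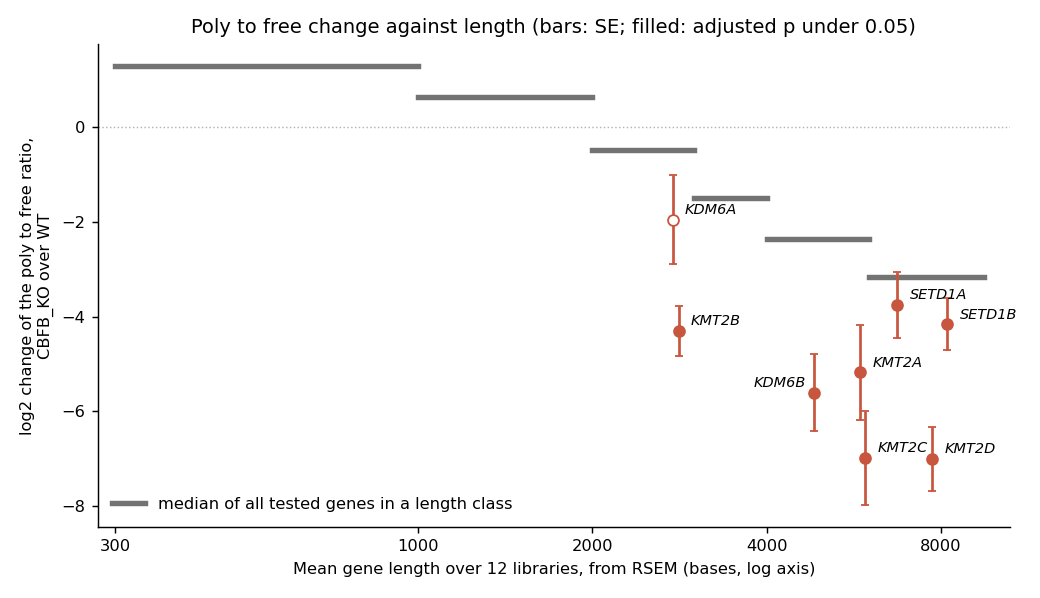
log2 change of the poly to free ratio, CBFB_KO over WT (y axis), against the mean gene length that RSEM reported over the 12 libraries (x axis, bases, log scale). Red points are the 8 genes with their SE, filled where the adjusted p was under 0.05, and grey lines are the medians of all tested genes in 6 length classes, the first and last drawn to the edge of the plot. The medians step down from 1.30 to -3.17, and all 8 genes lie below the line of their class, SETD1A and SETD1B by less than 1.

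With a length offset in the fit the ratio fell for 4 of the 8 mRNAs, beside 8.26% of all genes tested. KMT2C was then at -3.99 ± 0.731, KMT2D at -3.42 ± 0.596, KDM6B at -3.35 ± 0.697 and KMT2B at -3.16 ± 0.451, with edgeR adjusted p between 0.00247 and 0.0132. The offset rests on RSEM's isoform-weighted lengths averaged over libraries. For KMT2B the RSEM gene length averaged 2819 bases, against 8469 for its longest coding transcript. An offset by transcript length was not fitted. KMT2A (-2.05 ± 0.903), SETD1A (-0.85 ± 0.644), SETD1B (-0.73 ± 0.594) and KDM6A (-0.64 ± 1.02) did not pass, and all 8 remained below 0 while the median of all genes moved from -0.1 to 0.33. The calls over all genes were then 1345 lower and 1412 higher, where without the offset they were 2332 and 668. In the free fraction the same 4 mRNAs were higher with the offset, from 2.57 (KDM6B) to 3.59 (KMT2C), beside 15.9% of all genes. Scaling by library size alone gave 646 genes lower (3.97%) and 3003 higher, with a median of 1.54, and of the 7 enzymes called only SETD1A (-2.13) lost its call. Without CBFB_KO replicate 2, which had the higher mitochondrial share, the calls over all genes dropped to 360 lower (2.05%) and 2 higher. KMT2A (-5.00), KMT2C (-6.66) and SETD1A (-4.08) then missed the threshold with log2 changes within 0.5 of those above, so that 4 of 8 passed. Without WT replicate 1 KDM6A passed at -3.05 and 8 of 8 fell, beside 14.6% of all genes.

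**Figure D5:**
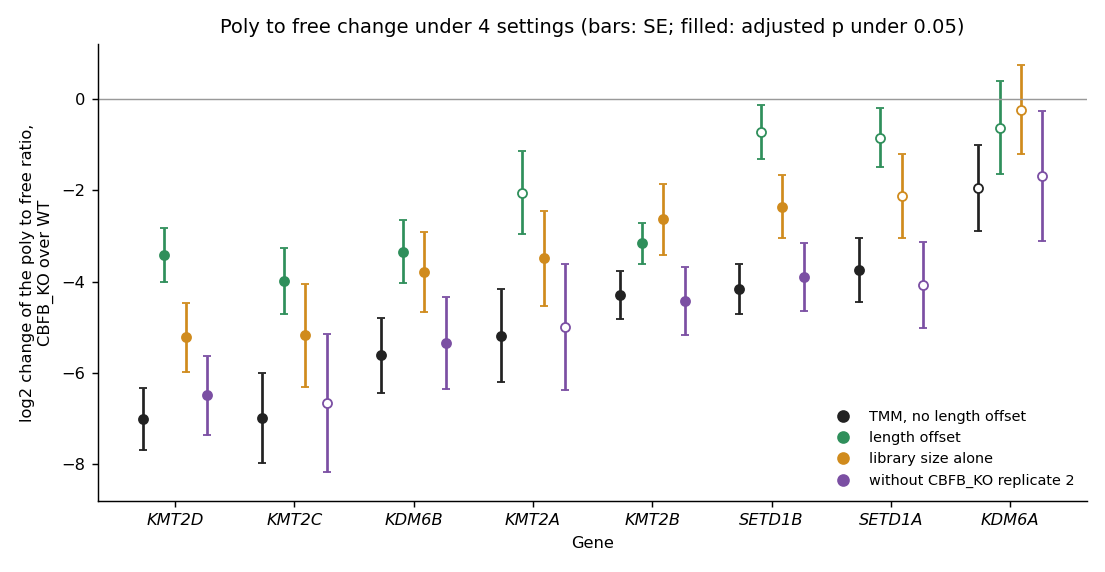
log2 change of the poly to free ratio, CBFB_KO over WT (y axis), for the 8 genes (x axis) under 4 settings: TMM scaling (black), a length offset (green), library size alone (orange) and TMM without CBFB_KO replicate 2 (purple). Bars are SE, and filled points have an adjusted p under 0.05. All points lie below 0, and KMT2B, KMT2D and KDM6B are filled under all 4 settings, while SETD1A is filled under TMM alone.

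With the density of C runs the share of genes that fell did not rise step by step in this way. The median log2 change did shift, and was higher where runs were denser. It was -0.91, -0.59, 0.18, 0.63 and 0.13 in the 5 classes below, in order. The share of genes that fell was 17.2% under 0.5 runs per 1000 bases, 19.8% from 0.5 to 1, 14.7% from 1 to 2, 12.7% from 2 to 4 and 18.5% at 4 or more. All 5 enzymes with dense runs fell, with changes from -3.75 to -7.02, and of the 3 with sparse runs KMT2A (-5.18) and KMT2C (-7.00) fell.

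The study judged a lower translation by a ratio of poly to free in CBFB_KO under 0.5 of that in WT. By the mean FPKM of the 2 libraries this held for 7 of the 8 mRNAs, and for 14.6% of the 15347 genes with a value in all 4 conditions. The median change in ratio over those genes was 3.4, so the typical gene rose on this scale. The change in ratio was 0.016 for KMT2D, 0.0309 for KDM6B, 0.0551 for KMT2C, 0.194 for SETD1B, 0.203 for SETD1A, 0.276 for KMT2A and 0.458 for KMT2B, and 0.689 for KDM6A. Only KMT2B, SETD1A, SETD1B and KDM6B reached a mean FPKM of 1 in each of the 4 conditions. Among the 7126 genes that did, 8.1% were under 0.5 and the median change was 4.42. With each change divided by that median, 31.9% of these genes and 8 of the 8 mRNAs were under 0.5. When each CBFB_KO gradient was set against each WT gradient, KMT2B was under 0.5 in 2 of the 4 pairings, with a range from 0.172 to 1.49, and that of SETD1A in 3 of 4. The FPKM of KMT2B in free overlapped between the genotypes, at 4.49 and 11.4 in WT and 22.7 and 5.97 in CBFB_KO, whereas its CPM did not. Without CBFB_KO replicate 1 KMT2B was at 1.0 and KDM6A at 0.544, while the other enzymes stayed below the cutoff. KMT2D, KMT2C, KMT2A, SETD1B and KDM6B were under 0.5 in all 4 pairings, the highest being 0.386 for KMT2A. The share of all genes under 0.5 in all 4 pairings is not given here. For the same-numbered pairings alone, 4.95% of 7096 genes past the FPKM minimum were under 0.5 in both. From CPM the change of KMT2B was 0.0507, and 8 of 8 were under 0.5, beside 27.4% of the background genes.

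Fewer of the partners of these enzymes passed the test. Of the 4 shared COMPASS core subunits 0 passed in the poly to free comparison. RBBP5 changed by -1.85 ± 0.628 (edgeR adjusted p = 0.0601) and DPY30, a small scaffold protein, by 1.32 ± 0.577 (edgeR adjusted p = 0.118). Of the 10 subunits that belong to some but not all of these complexes 3 fell and 0 rose, with a median of -1.32. NCOA6, of the KMT2C and KMT2D complexes, had 2.87 and 7.47 CPM in WT free and 288.0 and 424.0 in CBFB_KO free, and its ratio changed by -6.29 ± 1.05 (edgeR adjusted p = 0.00284). HCFC1, shared by the SETD1, KMT2A and KMT2B complexes, changed by -3.17 ± 0.512 (edgeR adjusted p = 0.00236).

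Among enzymes that act against these marks or on other histone sites, the counts differed by list. Of the 5 H3K4 demethylases 4 fell and 0 rose, with a median of -3.03, among them KDM5C at -3.36 ± 0.575 (edgeR adjusted p = 0.00322) and KDM1B at -7.47 ± 1.46 (edgeR adjusted p = 0.00612). KDM1B had 0 and 0.707 CPM in WT free, so the size of its change is poorly fixed. Of the 10 genes of PRC2 and its accessory subunits 2 fell and 0 rose, and these were RBBP7 (-3.03 ± 0.544) and RBBP4 (-2.13 ± 0.516), histone chaperones that also serve other complexes. EZH2 (-0.71, edgeR adjusted p = 0.433) and EZH1 (-1.69, edgeR adjusted p = 0.164), the H3K27 methyltransferases of PRC2, did not pass. Of 20 other histone lysine methyltransferases 4 fell and 0 rose, with KMT2E at -4.91 ± 0.717 and ASH1L at -5.70 ± 0.847. Of 11 other JmjC demethylases 5 fell and 0 rose, with PHF8, which removes H3K9 methylation at promoters, at -4.43 ± 0.611 and KDM2A, an H3K36 demethylase, at -4.93 ± 0.88. The medians of the last 2 lists were -0.998 and -3.36. Of the 9 mammary epithelial markers 5 also fell (median -2.93). All these counts stand beside the 14.3% over all genes. Whether the 8 enzymes differ from any of these lists was not tested.

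By their pattern over the 12 libraries, the genes most like KMT2D, which had with KMT2C the lowest estimates of the poly to free change, were RPRD2 (Pearson r = 0.995 of log2 CPM), PLBD2 (0.99) and PATL1 (0.989). Among the 8 themselves KMT2D was most like KMT2C (0.962). The genes most like KDM6A, which did not pass, were TEFM (0.946), ZBTB10 (0.933) and TOGARAM1 (0.933). These correlations share the 12 libraries and their scaling, and for KMT2D they follow mainly the CBFB_KO free libraries, which hold its highest values.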

How the data were processed

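RNA from 3 gradient fractions of each genotype was sequenced in 12 libraries, grouped by the sample labels. The labels name a TruSeq mRNA kit, whereas the study's general RNA-seq methods describe removal of rRNA, so how mRNA was selected is not certain. The submitters' processing notes name Trimmomatic, STAR, RSEM and hg19, with no versions. The authors deposited RSEM's expected counts, which are estimated reads per gene without normalization, and the same tables hold their TPM and FPKM, which the authors scaled by effective length and library total. Antisense and overlapping genes could share counts, since the strand setting is not given in the sources used here. The members and gene lists were chosen with earlier results of these data known.

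Symbols came from gene identifiers for 49995 genes and from transcript identifiers for 1493, KMT2B among them. Rounded expected counts entered edgeR's quasi-likelihood test (version 4.0.16, under R 4.3.3), with TMM factors and 1 mean for each of the 6 conditions, after filterByExpr had kept 16275 genes. All 12 libraries shared the estimate of dispersion, although replicate pairs differed in spread (mean chi-square per gene from 2.26 to 957). Such an estimate may be too small for free and too large for poly. Fits of 1 fraction alone called 97 genes lower and 1824 higher in free, against 2939 and 3943 with all libraries. In poly they called 111 lower and 62 higher, against 27 and 4. Adjusted p (Benjamini-Hochberg over all genes tested, two-sided) under 0.05 was called. The SE was taken from the log2 change and its F statistic. DESeq2 1.42.0 was an alternative. The length offset was a loess trend (span 0.5) of log2 CPM (prior count 2) on log2 effective length per library. The fit was tested on simulated data. Ratios used the mean FPKM without a pseudocount. A library total of 41050325 to 63886726 counts means that 3 counts make between 4.7e-06 and 7.31e-06 percent, and intervals on counts cover counting error only.

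Named genes were the 8 enzymes, CBFB, the 2 genes with the lowest poly to free p in each of 6 related lists, and the 3 genes most like KMT2D and KDM6A. Replicate numbers did not pair the genotypes (correlation of deviations 0.066 in free, 0.24 in mono and 0.034 in poly over 16275 genes). Transcripts were read from GENCODE release 29 (GRCh38), and those of 13091 of the 16275 tested genes were found. No other build was converted. Tables were handled with pandas 2.3.3 and figures drawn with matplotlib 3.10.9, under Python 3.11.15.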

Additional observations from a re-analysis of the deposited data

Results flagged for a closer look

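For 7 of the 8 enzymes the poly to free difference was not the same in the WT and CBFB_KO lines by the interaction term of the edgeR fit. The interaction was -5.18 for KMT2A, -4.30 for KMT2B, -7.00 for KMT2C, -7.02 for KMT2D, -3.75 for SETD1A, -4.16 for SETD1B and -5.61 for KDM6B on the log2 scale, with the poly to free ratio lower in both CBFB_KO gradients than in either WT gradient for each. By the same term 14.3% of all genes tested were lower and 4.1% higher. The order of the gradients also held for KDM6A, which did not pass, and for 36.5% of 12451 genes. The CBFB_KO free libraries on which the interaction values rest had mitochondrial shares of 71.56% and 87.22%, and the part of that in the result was not tested.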

How the results depend on the processing

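Each count of enzymes called stayed within 1.5 times its value under the settings tried, except as follows. With the length offset, and with the replicate block and the length offset together, the poly to free ratio fell for 4 of 8 and the free level rose for 4 of 8. Within WT the same settings gave 1 higher and 1 lower, and 1 higher and 2 lower. The shares of all genes were 11.0% higher and 11.5% lower, and 11.9% higher and 12.8% lower. Leaving out 1 replicate number of a genotype gave 4 (without CBFB_KO replicate 2) to 8 (without WT replicate 1) enzymes lower in the poly to free comparison, 7 to 8 higher in free, 0 (without WT replicate 1) to 3 higher in the WT comparison, and 6 (without CBFB_KO replicate 1) to 7 under the FPKM cutoff. The refits without 1 replicate number also changed the share of all genes called. With the replicate block alone 7 fell in poly to free, 7 rose in free and 4 were higher in WT, beside 15.4%, 24.9% and 14.4% of all genes. Under the FPKM cutoff 5 were below it in both same-numbered pairs. Of these 5, 2 were past the FPKM minimum, where 4.95% of 7096 genes were below in both. The numbers do not pair the genotypes, so the block removes no known shared source.

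Direction changed for the values below, of which KMT2D in WT had passed the test as reported, KDM6A in free passed under DESeq2 and without WT replicate 1, and KMT2A in WT passed as lower with the length offset. In the poly to mono ratio KDM6B went to -0.027 (RLE), -0.028 (DESeq2), -0.076 (length offset) and -0.075 (with the replicate block too), and ran from -0.506 to 0.736 on leaving out 1 replicate number, below 0 without WT replicate 2 or CBFB_KO replicate 1. SETD1A ran from -0.301 (without WT replicate 2) to 0.859. KDM6A in free was -0.094 by library size alone. In mono KMT2A ran from -0.474 to 1.992 (below 0 without WT replicate 1, and at -0.311 without CBFB_KO replicate 2), KMT2B from -0.121 to 0.055 (above 0 without replicate 1 of either genotype, 0.012 for WT) and KMT2D from -0.342 to 0.029 (without WT replicate 2). In poly, where WT replicate 2 decided the sign, KMT2A ran from -1.002 to 0.166, KMT2C from -1.221 to 0.556 and KDM6A from -0.854 to 0.597. In the WT poly to free ratio the length offset gave KMT2C -0.151, KMT2D -0.103, SETD1B -1.098 and KDM6A -0.391, and with the replicate block too -0.191, -0.031, -1.175 and -0.505. Leaving out 1 WT replicate gave KMT2A -1.834 to 0.684 and SETD1B -0.207 to 0.744, both turned without WT replicate 1, and KDM6A -0.776 to 1.556, turned without WT replicate 2. The cause of these changes was not tested.

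Counts were lowest for KMT2C in mono, with 0 and 2 in WT, and 2 libraries per condition limit every interval.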
